A study of Mus musculus with 6 samples.

Results

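The 10 genes described here are the leptin receptor Lepr, the kinase Jak2 that is bound to it, the transcription factors Stat3, Stat5a and Stat5b, the feedback inhibitors Socs1, Socs2, Socs3 and Cish, and the phosphatase Ptpn1. They were chosen by symbol, as known parts of leptin receptor and Jak-Stat signaling, and each symbol matched 1 of the 54532 gene identifiers of the count table through GENCODE release M21 of the mouse build GRCm38. RNA-Seq had been run on epididymal fat, a visceral fat pad attached to the testis and epididymis, taken from untreated male C57BL/6J mice. One group of 3 samples came from mice on a normal diet (ND, 4.5% fat) and the other group of 3 samples from mice on a high-fat diet (HFD, 60% fat), the standard diet-induced model of obesity. Feeding started when the mice were 4 weeks old and went on for 16 weeks, so that they were 20 weeks old at sampling, and the comparison asked which genes differ between the fat of HFD and ND mice. Libraries are named here by diet and replicate number (ND1 to ND3 and HFD1 to HFD3). The labels do not say whether a library is 1 mouse or a pool, so p-values set the diet difference against the spread between these libraries.

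Leptin is a hormone made by fat cells that signals the size of the fat store, above all to the hypothalamus. Its receptor is a cytokine receptor without a kinase of its own, so the bound Janus kinase Jak2 phosphorylates it, and the phosphorylated tails recruit Stat3 and the Stat5 proteins, which move to the nucleus and switch on target genes. Socs3, Cish and other Socs genes are among these targets, and their proteins block the receptor or the kinase in turn, while Ptpn1, also called PTP1B, removes phosphate from Jak2. In fat the same Jak2 and Stat5 route is used by growth hormone and prolactin. RNA levels do not report phosphorylation, so they show the amount of message for each part of the pathway and not its activity.

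The letters that Stat proteins are known to recognise are TTCNNNGAA, which read the same on both strands. They were searched in windows from 250 bases before to 50 bases after the RefSeq gene start (build GRCm38.p6). RefSeq windows were found for 9 members (12 windows, none for Socs2), and only those of Cish and Socs3, with 1 window each, held the motif. This is 2 of 12 windows, against 8.30% of all 32851 windows, and too few to set the members apart. The Cish window held 2 copies, at bases 1 and 12 counted from the RefSeq start, a number reached or passed by 0.457% of all windows. The Socs3 copy began 154 bases before the RefSeq start (position -154). Both sites are printed because these genes are the classic Stat-induced inhibitors, with the motifs in capitals.
Cish site, chr9:107296654-107296683, plus strand: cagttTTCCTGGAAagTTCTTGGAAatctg
Socs3 site, chr11:117969502-117969531, minus strand: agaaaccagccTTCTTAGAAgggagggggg
In GENCODE the Cish site lies in the 5′ untranslated first exon of 1 Cish transcript and before the start of the others, and the Socs3 site lies in an intron of 1 Socs3 transcript and before the start of the others. A match is a description of the letters and was not tested as a site of binding.

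Count totals were between 16996896 and 18859320 per library, at which 3 counts equal 0.15 to 0.181 CPM (counts relative to the library total, scaled here by TMM factors). None of the 14 adipocyte markers found was at 0, which cannot tell epididymal fat from another fat depot. Their summed CPM was between 38900 and 50800 in the ND libraries and between 14300 and 36200 in the HFD libraries. On HFD 4 of 14 (Cfd, Retn, Slc2a4 and Adrb3) were lower, none was higher and 10 did not pass. Over all 15751 genes tested 6.04% were lower and 9.85% higher. Much of the difference in the sums came from Cfd, at a mean of 13600 CPM on ND and 1280 CPM on HFD. Fabp4, the other large part of the sums, was at 12400 and 10500 CPM (edgeR adjusted p = 0.641). The summed CPM of the 15 macrophage markers was between 2020 and 2120 in the ND libraries and between 4370 and 9660 in the HFD libraries, with 11 higher and none lower. ND3 stood apart by epithelial and ductal genes, whose 9 markers summed to 416 CPM there and to 9.04 to 12.6 CPM in the other libraries. No marker of the lists for T and NK cells, B cells, endothelial cells, mesothelial cells, or progenitors and fibroblasts passed the test, and of 6 neutrophil and mast cell markers tested 2 were higher. These are bulk samples, so fewer cells of a type and less RNA per cell cannot be told apart in any result given here.

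All 10 members passed the filter on low counts and were tested with edgeR's quasi-likelihood test, with p-values adjusted over all 15751 genes tested. Stat5a was the 1 member that passed, and it was lower on HFD. Over all genes 15.9% passed, 9.85% higher and 6.04% lower, so 1 of 10 members is near that background. No member passed in the higher direction, where 1 member (Ptpn1) had an unadjusted p under 0.05, DESeq2 called the same 1, and limma-voom called 0. The median log2 fold change was -0.15 over the members and 0.0074 over all genes tested, with 2 members positive and 8 negative. The 2 diets did not overlap in CPM for 3 members (Jak2, Stat5a and Ptpn1), against 40.9% of all genes tested.

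**Figure D1:**
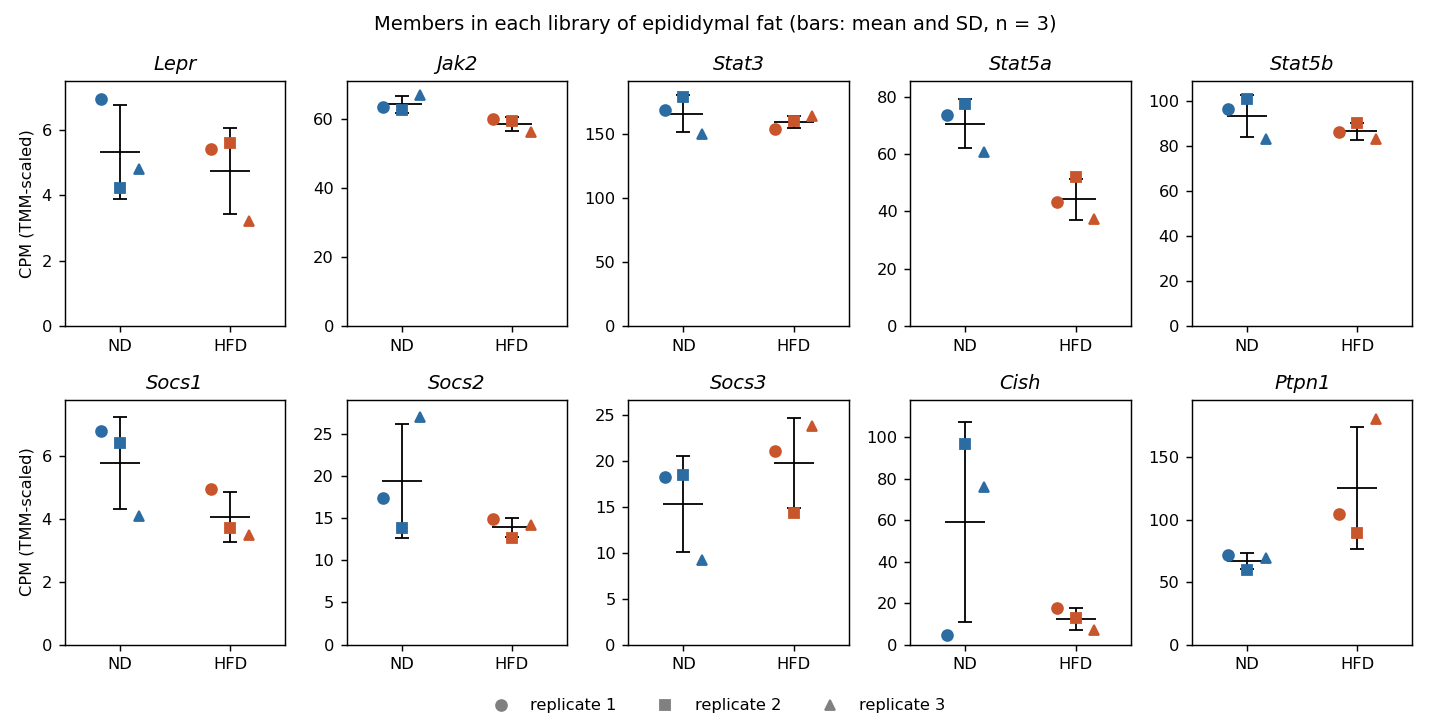
TMM-scaled CPM of each of the 10 members (vertical axes, each starting at 0 with its own scale) in the 3 ND and 3 HFD libraries, with replicate numbers as symbols and bars for mean and SD (n = 3). The diets separate for Jak2, Stat5a and Ptpn1, and the ND libraries of Cish spread from 4.80 to 96.7 CPM.

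**Figure D2:**
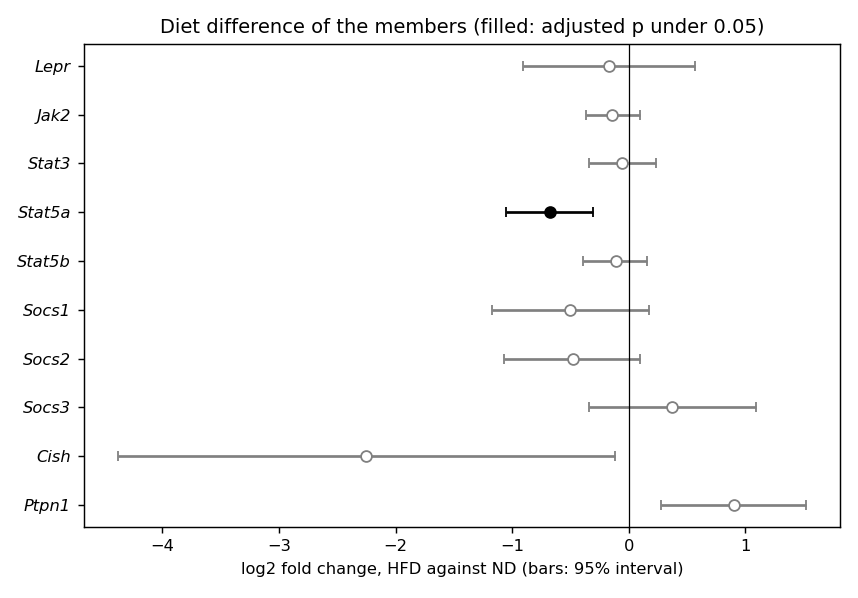
Log2 fold change of HFD against ND for each member, from edgeR, with its 95% interval as the bar and a filled point where the adjusted p was under 0.05. Stat5a is the only filled point, and the intervals of Cish and Ptpn1 also lie on one side of 0.

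The receptor was scarce and its level did not differ detectably between the diets, while the message for its ligand was 2.60-fold higher on HFD. Lepr (ENSMUSG00000057722, chr4:101717404-101815352, plus strand) had 129, 73 and 96 counts in ND1 to ND3 and 99, 93 and 56 counts in HFD1 to HFD3, which is 6.96, 4.23 and 4.80 CPM and 5.41, 5.6 and 3.23 CPM. The highest library was an ND library and the lowest an HFD library, and the diets overlapped. The log2 fold change was -0.17 (SE 0.32, 95% interval -0.91 to 0.57, edgeR adjusted p = 0.744), and a difference inside that interval was not detectable with these libraries. It was 0.07 without ND1 and 0.03 without HFD3. Counts per gene add the long signaling form of the receptor to its short forms, which cannot be told apart here.

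Lep, the leptin gene, had 22662, 16534 and 18167 counts on ND and 46999, 53347 and 39215 counts on HFD. Every HFD library lay above every ND library, with a log2 fold change of 1.38 (SE 0.23, edgeR adjusted p = 0.0125). With 1 library left out it was 1.23 to 1.52, and Lep passed without HFD2 and without HFD3 but not without ND1, ND2, ND3 or HFD1 (edgeR adjusted p up to 0.0628). Set against the receptor in the same library, there were 175, 225 and 188 Lep counts per Lepr count on ND and 472, 571 and 694 on HFD. The diets did not overlap, and the mean log2 ratio was 1.55 higher on HFD (2.93-fold). The exact two-sided permutation test gave p = 0.1, the smallest value that 3 against 3 libraries allow, and 0.2 after Benjamini-Hochberg adjustment over the 6 ratios tested. Leprot, which lies upstream of Lepr on the same strand and whose protein lowers the amount of receptor on the cell surface, had 1943, 1682 and 2085 counts on ND and 2267, 1934 and 2941 counts on HFD. In CPM every HFD library (124, 116 and 169) lay above every ND library (105, 97.6 and 104), but Leprot did not pass the test (log2 fold change 0.42, edgeR adjusted p = 0.121).

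Jak2, the kinase that starts the signal, differed little. Jak2 (ENSMUSG00000024789, chr19:29251828-29313080, plus strand) was at 63.4, 62.5 and 67.1 CPM in the ND libraries and at 60.1, 59.3 and 56.3 CPM in the HFD libraries, from 978 to 1342 counts per library. The 3 HFD libraries were all just below the 3 ND libraries. The log2 fold change was -0.14 (SE 0.10, 95% interval -0.37 to 0.10, edgeR adjusted p = 0.374), a narrower interval than those of the 4 Socs family genes.

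The 3 Stat genes are neighbors on mouse chromosome 11, where Stat5b, Stat5a and Stat3 follow each other, and of the 3 only Stat5a, in the middle, passed the test. Stat5a and Stat5b are close copies that both carry signals of growth hormone, prolactin and leptin. Stat5a (ENSMUSG00000004043, chr11:100859351-100885169, plus strand) had 1366, 1335 and 1218 counts on ND and 790, 861 and 650 counts on HFD. This is 73.7, 77.4 and 60.9 CPM (mean 70.7 ± 8.69, SD, n = 3) against 43.2, 51.9 and 37.4 CPM (mean 44.2 ± 7.26). All HFD libraries lay below all ND libraries, with HFD3 lowest and HFD2 highest on HFD. This was a log2 fold change of -0.68 (SE 0.16, 95% interval -1.05 to -0.31, edgeR adjusted p = 0.0301).

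The call on Stat5a held under 10 of 11 other settings that kept all libraries, with DESeq2 at an adjusted p of 0.00523 and limma-voom at 0.0318, and not in FPKM without a filter on low values (log2 fold change -0.62, limma adjusted p = 0.0859). It was lost without ND1 (log2 fold change -0.65, edgeR adjusted p = 0.107), without ND2 (-0.61, 0.0987) and without HFD1 (-0.69, 0.111), and kept without each of the other 3 libraries. Over all genes the fits without ND1, ND2 and HFD1 called 492, 591 and 474, against 2504 with all libraries. The order of the HFD libraries was that of the summed adipocyte markers, at 23400, 36200 and 14300 CPM in HFD1 to HFD3. The B cell markers (552, 628 and 440 CPM) had the same order, and the macrophage markers (5680, 4370 and 9660 CPM) the reverse. The part of these cell types in the result was not tested.

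Stat5b (ENSMUSG00000020919, chr11:100780731-100850724, minus strand) was at 96.6, 101 and 83.1 CPM on ND and at 86.3, 90.5 and 83.2 CPM on HFD. The diets overlapped, with the lowest libraries of both diets level, and the log2 fold change was -0.11 (SE 0.12, 95% interval -0.39 to 0.16, edgeR adjusted p = 0.543). Within a library there were 0.763, 0.764 and 0.733 Stat5a counts per Stat5b count on ND and 0.5, 0.573 and 0.450 on HFD. The ND values were almost equal, every HFD value was below them, and the mean log2 ratio was 0.58 lower on HFD (difference -0.58, 0.671-fold, exact two-sided permutation p = 0.1, adjusted p = 0.2 over the 6 ratios). Reads in exons where the copies are alike may have been split between them or left out in the counting, so the size of the ratio is uncertain.

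Stat3, the main Stat factor of the leptin receptor and of the IL-6 family, was at 169, 179 and 150 CPM on ND and at 154, 160 and 164 CPM on HFD (ENSMUSG00000004040, chr11:100885098-100939540, minus strand). The HFD values lay inside the ND range. For Stat3 the log2 fold change was -0.06 (SE 0.12, 95% interval -0.34 to 0.23, edgeR adjusted p = 0.787), and 0.01 without ND2. The ends of Stat3 and Stat5a overlap by 72 exon bases on opposite strands, and the strand setting of the counting is not given in the sources used here.

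**Figure D3:**
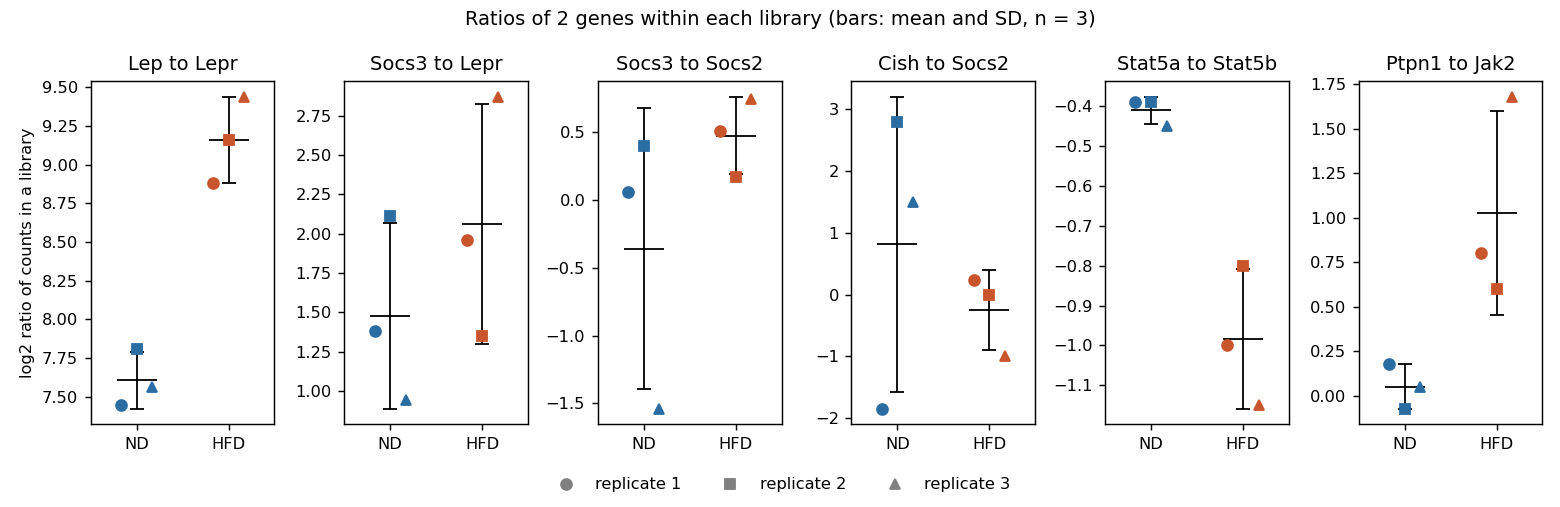
Log2 ratio of the counts of 2 genes within each library (vertical axes, each with its own scale that need not include 0) for the 6 pairs compared, with bars for mean and SD (n = 3) and replicate numbers as symbols. The diets do not overlap for Lep to Lepr, Stat5a to Stat5b and Ptpn1 to Jak2, and overlap for the other 3 pairs.

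None of the 4 Socs family inhibitors passed the test. Socs1, an inhibitor of the Jak kinases that is strongly induced by interferons, was low at 6.80, 6.44 and 4.10 CPM on ND and at 4.97, 3.73 and 3.51 CPM on HFD (ENSMUSG00000038037, chr16:10782240-10785536, minus strand). HFD1 was above ND3, so the diets overlapped, and the log2 fold change was -0.50 (SE 0.29, 95% interval -1.17 to 0.17, edgeR adjusted p = 0.261).

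Socs2, which restrains growth hormone signaling, was at 17.4, 13.9 and 27.0 CPM on ND and at 14.9, 12.7 and 14.2 CPM on HFD (ENSMUSG00000020027, chr10:95385362-95417180, minus strand). ND3 stood above the other 5 libraries, which overlapped. The log2 fold change of -0.48 (SE 0.25, 95% interval -1.07 to 0.10, edgeR adjusted p = 0.217) was -0.21 without ND3 (adjusted p = 0.493).

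Socs3, the inhibitor that binds the leptin receptor itself, moved in ND3 in the opposite direction. It was at 18.2, 18.4 and 9.25 CPM on ND and at 21.1, 14.3 and 23.8 CPM on HFD (ENSMUSG00000053113, chr11:117966079-117970047, minus strand). ND3 was the lowest of all 6 libraries, HFD2 was below ND1 and ND2, and HFD1 and HFD3 were the highest. For Socs3 the log2 fold change was 0.37 (SE 0.31, 95% interval -0.34 to 1.09, edgeR adjusted p = 0.428), and 0.08 without ND3 (adjusted p = 0.856). ND3 is the library with 416 CPM of epithelial and ductal markers, whose part in its Socs2 and Socs3 values was not tested.

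The ratios of these inhibitors overlapped between the diets. There were 2.61, 4.32 and 1.92 Socs3 counts per Lepr count on ND and 3.89, 2.55 and 7.32 on HFD, and the mean log2 ratio was 0.58 higher on HFD (exact two-sided permutation p = 0.5, adjusted p = 0.5 over the 6 ratios). Socs3 to Socs2 was at 1.04, 1.32 and 0.343 on ND and at 1.42, 1.13 and 1.67 on HFD, a mean log2 difference of 0.83 (exact permutation p = 0.2, adjusted p = 0.3 over the 6 ratios). The low ratio of ND3 joined its low Socs3 and its high Socs2, and without ND3 the difference was 0.24. That of Socs3 to Lepr was 0.18 without HFD3, 0.31 without ND3, 0.90 without ND2 and 0.94 without HFD2.

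Cish, the Stat5-induced inhibitor with 2 motif copies at its RefSeq start, had the widest spread of the members. Cish (ENSMUSG00000032578, chr9:107296026-107302784, plus strand) had 89, 1667 and 1520 counts on ND and 320, 210 and 124 counts on HFD, which is 4.80, 96.7 and 76.0 CPM (mean 59.2 ± 48.2, SD, n = 3) against 17.5, 12.6 and 7.14 CPM (mean 12.4 ± 5.18). ND2 and ND3 were above all HFD libraries, and ND1 was below all of them. In edgeR the log2 fold change was -2.25 (SE 0.91, 95% interval -4.38 to -0.12, unadjusted p = 0.0409, edgeR adjusted p = 0.131), which did not pass. Without ND1 it was -2.80 and passed (edgeR adjusted p = 0.0344), and without each other library in turn it did not. With all libraries kept, it was smaller in limma-voom (-1.48, adjusted p = 0.443) and in limma on log2(FPKM + 1) (-1.33, adjusted p = 0.299). The exons of Cish overlap those of antisense gene models by 740 bases, of which Gm17040 had 0 to 30 counts per library and Gm17041 had 0 in every library.

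The ND spread of Cish was 20.1-fold between its highest and lowest library. Of the 9895 genes tested with a mean of at least 10 CPM on ND, 10 reached or passed this ratio. Genes at 0 in an ND library were not counted. Bcl6, a repressor whose gene Stat5 is known to turn down, was looked at after the values of Cish were seen, and it ran the other way in the same library. Its counts were 2207, 450 and 495 on ND and 803, 741 and 748 on HFD, so ND1 was the highest and ND2 and ND3 the lowest of the 6 libraries, with the HFD libraries nearly level between them (119, 26.1 and 24.7 CPM against 43.9, 44.6 and 43.1 CPM, log2 fold change -0.37, edgeR adjusted p = 0.695). Without ND1 the direction was the opposite, and edgeR called Bcl6 higher on HFD. Among the 9895 genes tested with a mean of at least 10 CPM on ND, Cish was the 1 gene that was at least 10-fold lower in ND1 than in both other ND libraries, and Bcl6 was 1 of 2 genes at least 4-fold above both. The other was Angptl8, a secreted regulator of lipoprotein lipase that is induced by feeding and insulin, with 3973, 623 and 327 counts on ND and 72, 90 and 95 counts on HFD. These 3 genes were singled out after their values were seen. The 10-fold and 4-fold cutoffs are unequal and were not planned beforehand, so these counts do not measure how unusual the 3 genes are.

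Socs2 in ND1 lay between ND2 and ND3. Igf1, the growth factor that Stat5 induces, had 7561, 8211 and 9180 counts on ND and 3456, 3517 and 5038 counts on HFD, so the diets did not overlap and it fell by 0.96 on the log2 scale (SE 0.20, edgeR adjusted p = 0.0208). That call was lost without ND1, ND2, ND3 or HFD1 (edgeR adjusted p up to 0.0851). Cish to Socs2 was at 0.277, 6.93 and 2.81 on ND and at 1.18, 0.995 and 0.503 on HFD (mean log2 difference -1.07, exact two-sided permutation p = 0.5, adjusted p = 0.5 over the 6 ratios), with every HFD library between ND1 and the other 2 ND libraries. This difference was -2.40 without ND1 and -0.07 without ND2.

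**Figure D4:**
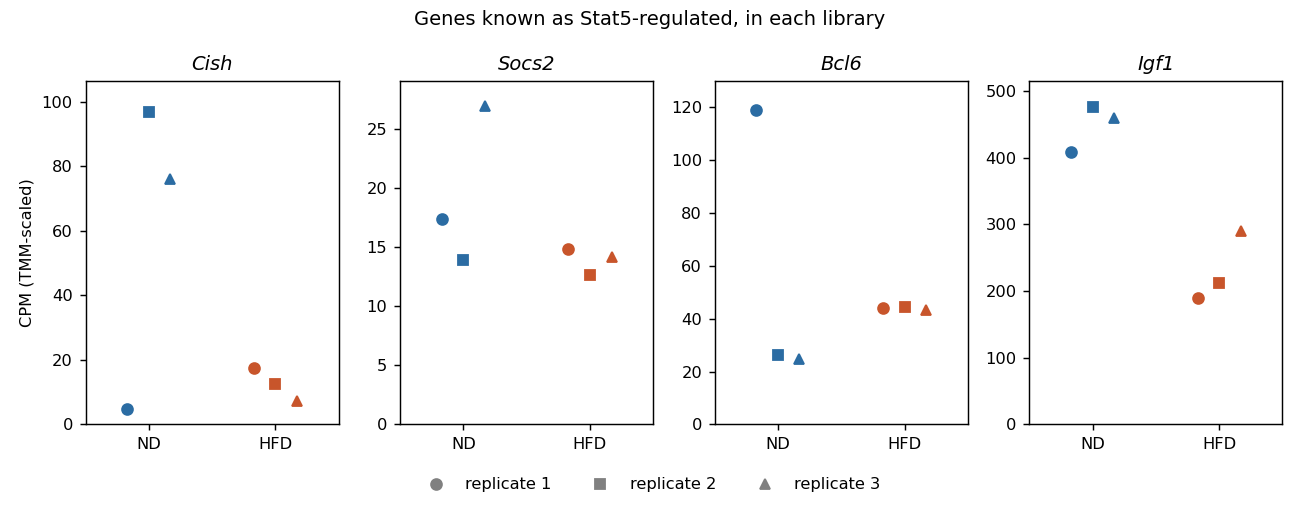
TMM-scaled CPM (vertical axes from 0, each with its own scale) of Cish, Socs2, Bcl6 and Igf1 in the 3 ND and 3 HFD libraries, with replicate numbers as symbols. ND1 is the lowest library for Cish at 4.80 CPM and the highest for Bcl6 at 119 CPM, while for Igf1 all ND libraries lie above all HFD libraries.

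Ptpn1, the phosphatase that acts on Jak2 and on the insulin receptor, was higher in every HFD library without passing the test. Ptpn1 (ENSMUSG00000027540, chr2:167932057-167979385, plus strand) had 1327, 1030 and 1391 counts on ND and 1913, 1490 and 3139 counts on HFD. This is 71.6, 59.7 and 69.5 CPM (mean 67.0 ± 6.35, SD, n = 3) against 105, 89.7 and 181 CPM (mean 125 ± 48.9). All HFD libraries lay above all ND libraries, and HFD3 lay far above the other 2. The log2 fold change was 0.90 (SE 0.26, 95% interval 0.28 to 1.52) with an edgeR adjusted p of 0.0575.

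Its side of the threshold depended on HFD2, HFD3 and the tool. Ptpn1 passed without HFD3 (log2 fold change 0.52, edgeR adjusted p = 0.0399), without HFD2 (1.10, 0.018) and with DESeq2 on all libraries (0.0118). The order of the HFD libraries was that of the summed macrophage markers, at 5680, 4370 and 9660 CPM in HFD1 to HFD3. The neutrophil and mast cell markers (59.3, 45.3 and 119 CPM) had the same order. So had the progenitor and fibroblast markers (3520, 3230 and 4590 CPM), and the adipocyte and B cell markers had the reverse. Not every marker followed its list: S100a8 was at 4.70, 7.11 and 5.59 CPM and Dpp4 at 48.5, 51.6 and 38.2 CPM. The part of these cell types in the result was not tested. Per Jak2 count in the same library there were 1.13, 0.955 and 1.04 Ptpn1 counts on ND and 1.74, 1.51 and 3.21 on HFD. The diets did not overlap, and the mean log2 ratio was 0.97 higher on HFD (1.96-fold, exact two-sided permutation p = 0.1, adjusted p = 0.2 over the 6 ratios), and 0.64 higher without HFD3.

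Levels of different members were compared per length, in FPKM as deposited. CPM per kb of all annotated exons of a gene gave nearly the same medians (11.8 for Cish and 1.83 for Socs2 on ND). That length was 6419 bases for Cish and 9531 bases for Socs2. Where the transcripts present are shorter, the level per length and the rank given here are too low, which was not tested. On ND the medians ran from Stat3 (18.0 FPKM) and Stat5b (17.8) over Jak2 (12.8), Ptpn1 (12.6), Cish (11.9) and Stat5a (10.5) to Socs3 (6.41), Socs1 (2.26), Socs2 (1.86) and Lepr (0.683). Neighbors in this order overlapped over their 3 libraries except Stat5b above Jak2, Stat5a above Socs3, Socs3 above Socs1 and Socs2 above Lepr. On HFD Ptpn1 stood first at 19 FPKM, with libraries from 16.3 to 32.7 FPKM that overlapped those of Stat3 (16.9 FPKM). Stat5b (15.7), Jak2 (11.8), Socs3 (7.35), Stat5a (6.08), Cish (1.98), Socs2 (1.5), Socs1 (1.29) and Lepr (0.771) followed, and Stat5b above Jak2, Jak2 above Socs3, Stat5a above Cish and Socs1 above Lepr were the neighbors that did not overlap. Lepr was thus the lowest member per length on both diets, at 0.458 to 1.01 FPKM over the 6 libraries, where Lep was at 272 to 963 FPKM.

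The pathway around the members was described from 4 further lists with 98 genes, of which 91 were tested. Of these, 27 were higher and 4 lower on HFD (34.1%, against 15.9% of all genes tested), with a median log2 fold change of 0.29 and a range from -3.07 to 5.79. Leaving out 1 library moved these counts, to 9 higher and 0 lower without ND1, 10 and 1 without ND2, and 14 and 3 without ND3. They were 10 and 1 without HFD1, 33 and 7 without HFD2, and 25 and 5 without HFD3. Over all genes tested, calls moved too, from 2504 with all libraries to 492, 591 and 1003 without ND1, ND2 and ND3. Without HFD1, HFD2 and HFD3 they were 474, 3940 and 2095. The summed CPM of the macrophage markers was at least 4370 in the HFD libraries and at most 2120 in the ND libraries. Their part in the counts of pathway genes was not tested.

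Of 30 cytokine ligands and receptors tested, 13 were higher and 1 was lower (46.7%, against 15.9% of all genes tested). The median log2 fold change was 0.37. Il7r, the receptor chain for IL-7 and, with Crlf2, for TSLP, had 30, 25 and 37 counts on ND and 1467, 796 and 2546 counts on HFD (log2 fold change 5.79, SE 0.47, edgeR adjusted p = 0.00329). Its partner chain Crlf2 also rose, by a log2 fold change of 1.58 (SE 0.19, edgeR adjusted p = 0.00651). Il10ra, the receptor of the anti-inflammatory cytokine IL-10, rose by 1.77 (adjusted p = 0.00813) and Csf2ra, the receptor chain for the myeloid growth factor GM-CSF, by 2.05 (adjusted p = 0.00918). All 4 had every HFD library above every ND library, and passed with each library left out.

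The 1 receptor that fell was Prlr, the prolactin receptor, which signals through Jak2 and Stat5. It had 974, 911 and 736 counts on ND and 273, 259 and 128 counts on HFD, with no overlap (log2 fold change -1.91, SE 0.30, edgeR adjusted p = 0.0109), and 203 of its exon bases overlap the gene model Gm21973 on the same strand. The call was lost without ND1 or ND2 (edgeR adjusted p up to 0.0505). Ghr, the growth hormone receptor, had 33520, 33869 and 30431 counts on ND and 17619, 21648 and 10081 counts on HFD. The diets did not overlap for Ghr either, but it did not pass (log2 fold change -0.90, SE 0.31, edgeR adjusted p = 0.0884). In both genes HFD3 was the lowest and HFD2 the highest HFD library in CPM. The summed adipocyte markers (23400, 36200 and 14300 CPM in HFD1 to HFD3) and B cell markers (552, 628 and 440 CPM) had the same order. Their part in these values was not tested.

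Of the 8 other Janus kinases and Stat factors, 2 were higher and none was lower by edgeR (25.0%, against 15.9% of all genes tested). The median log2 fold change was 0.24. Stat6, the factor of IL-4 and IL-13, rose from 131, 111 and 115 CPM on ND to 186, 183 and 212 CPM on HFD (log2 fold change 0.70, SE 0.13, edgeR adjusted p = 0.0161). Tyk2, a kinase of the interferon and IL-10 receptors, rose by a log2 fold change of 0.62 (SE 0.15, edgeR adjusted p = 0.0361). Both calls were lost without ND1, ND2, ND3 or HFD1 (edgeR adjusted p up to 0.0725 for Stat6 and 0.114 for Tyk2). Jak1, a kinase of the IL-6 and interferon receptors, did not pass (log2 fold change 0.45, edgeR adjusted p = 0.0763).

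Of the 28 other feedback inhibitors, phosphatases and adaptors, 6 were higher and 2 were lower (28.6%, against 15.9% of all genes tested). The median log2 fold change was 0.16. The higher phosphatases Ptprc (CD45, the common surface phosphatase of blood cells; log2 fold change 1.93, edgeR adjusted p = 0.0111), Ptpn6 (SHP-1; 1.98, 0.0125), Ptpre (1.75, 0.00754) and Dusp3 (1.04, 0.00732) all had HFD libraries above the ND libraries. Ptpre and Dusp3 passed with each library left out, Ptprc was lost without ND1 or ND2 (edgeR adjusted p up to 0.0565), and Ptpn6 without ND1, ND2 or HFD1 (up to 0.0601). Ptpn2, the closest relative of Ptpn1, was at a log2 fold change of 0.11 (adjusted p = 0.69) and Ptpn11, which encodes SHP2, at -0.14 (adjusted p = 0.612). The 2 that fell are adaptors of insulin signaling. Irs1, a substrate of the insulin receptor, went from 590, 554 and 760 counts on ND to 186, 276 and 131 counts on HFD (log2 fold change -1.57, SE 0.28, edgeR adjusted p = 0.0144), with 2822 exon bases shared with the antisense gene model Gm9747. Sh2b2, an adaptor that binds Jak2 and the insulin receptor, fell by 0.94 on the log2 scale (SE 0.16, edgeR adjusted p = 0.0129). Irs1 was lost without ND1, ND2, ND3 or HFD1 (edgeR adjusted p up to 0.0728) and Sh2b2 without ND1 or HFD1 (up to 0.0663). Both were lowest in HFD3 and, on HFD, highest in HFD2. This was again the order of the adipocyte and B cell markers, whose part was not tested.

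Of 26 known Stat3 and Stat5 target genes tested, 6 were higher and 1, Igf1, was lower (26.9%, against 15.9% of all genes tested). The median log2 fold change was 0.31. Fos, an immediate early gene, had 192, 119 and 132 counts on ND and 1645, 676 and 1889 counts on HFD (log2 fold change 3.33, SE 0.39, edgeR adjusted p = 0.0064). Junb, a related early gene, rose by a log2 fold change of 1.49 (edgeR adjusted p = 0.0247), the cell cycle inhibitor Cdkn1a by 1.69 (adjusted p = 0.00402) and the survival gene Mcl1 by 0.99 (adjusted p = 0.0201). Fos and Cdkn1a passed with each library left out, and Junb and Mcl1 were lost without ND1, ND2, ND3 or HFD1 (edgeR adjusted p up to 0.0898 and 0.0905). These genes answer to many other signals. Lcn2, the lipocalin that Stat3 induces and epithelia secrete, had 120, 83 and 1980 counts on ND and 81, 57 and 92 counts on HFD and did not pass (log2 fold change -3.07, SE 1.15, edgeR adjusted p = 0.111), its high library being ND3.

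**Figure D5:**
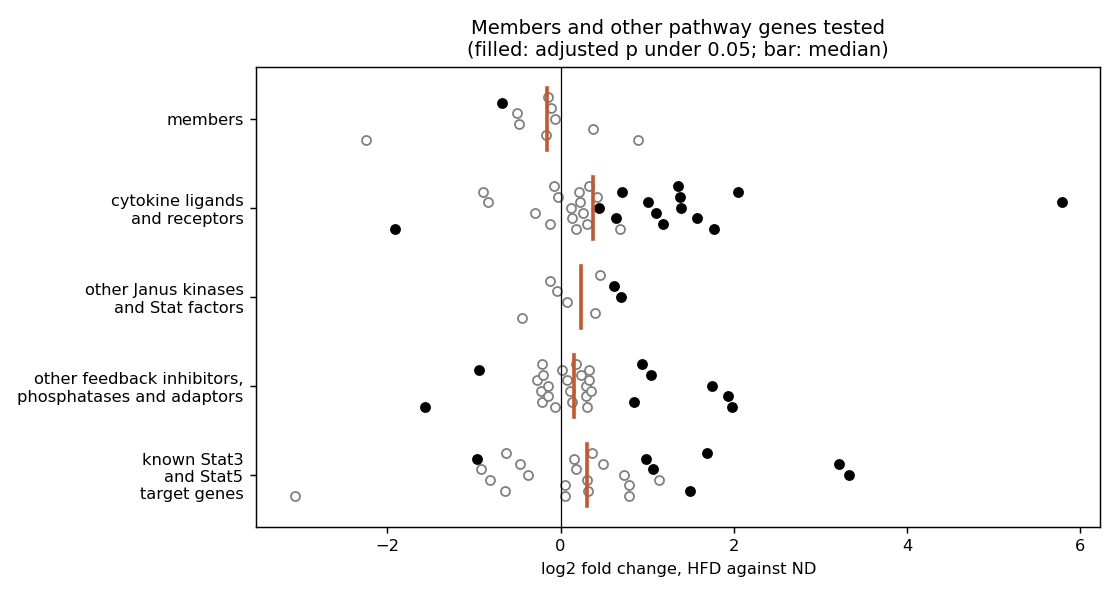
Log2 fold change of HFD against ND (horizontal axis) for each gene tested among the members and in the 4 further lists, with filled points where the edgeR adjusted p was under 0.05 and a vertical bar at each list's median. The medians are -0.15 for the members and 0.16 to 0.37 for the other lists, and Il7r lies farthest right at 5.79.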

How the data were processed

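RNA-Seq libraries of epididymal fat were grouped by the diet and replicate number in the labels (3 ND, 3 HFD). The authors deposited raw read counts per gene, and FPKM values equal to those counts times a factor per gene and per library. Per the submitters' processing notes, the tools were CASAVA 1.8, fastp, HISAT2 2.0.5, featureCounts 1.5.0-p3 and DESeq2 1.20.0, with human builds listed, while the study's methods name TopHat, Cufflinks and GRCm38. The identifiers are those of mouse genes, and 54495 of 54532 were found in GENCODE M21. Which aligner made the deposited counts was not settled, and the strand setting is not given in the sources used here.

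Genes were tested in R 4.3.3 with edgeR 4.0.16 (quasi-likelihood, robust=TRUE) on TMM-scaled libraries with filterByExpr, diet as the only factor and Benjamini-Hochberg adjustment over all genes tested, at a threshold of 0.05. Standard errors come from the F statistic and 95% intervals from a t distribution with the moderated degrees of freedom. Ratios within a library used log2 of counts with 0.5 added and exact permutation tests. Depth was 16996896 to 18859320 counts per library. The intervals are for the diet difference, from a variance between libraries that edgeR moderates across genes. The same was run with limma-voom (limma 3.58.1) and with DESeq2 1.42.0, in edgeR with the size factors of DESeq2 or library size alone, no filter, at least 10 counts in 3 libraries, a block for the replicate number or robust=FALSE, leaving out each library, and with limma on log2(FPKM + 1) for genes of at least 0.5 FPKM in 3 libraries, also with 0.1 added or unfiltered. The fits were tested on simulated data.

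The members, lists and tests were chosen with earlier results of these data known. Named genes are all members, Lep, from each list at most the 4 genes with the smallest p in each direction among those that passed, and at most 2 that did not pass. Marker genes are named where their list is summed, gene models where they overlap a named gene, and Angptl8 was chosen after its values were seen. Promoter sequences are from RefSeq.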

Additional observations from a re-analysis of the deposited data

How the results depend on the processing

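With all libraries kept, the members' counts of calls (0 higher, 1 lower) changed with DESeq2, which called 1 higher (Ptpn1, log2 fold change 0.88, adjusted p = 0.0118), and on unfiltered FPKM, which called 0 lower (Stat5a -0.62). For the other pathway genes (27 higher, 4 lower), unfiltered FPKM gave 12 and 2, and DESeq2 gave 7 lower. With each library left out in turn, the members called higher numbered 0 to 1, the members called lower 0 to 1 (without ND1 the call was Cish, not Stat5a), and the other pathway genes called higher 9 to 33 and lower 0 to 7. Over all genes these fits called 474 (without HFD1) to 3940 (without HFD2), against 2504 with all libraries, 3629 with DESeq2 and 649 on unfiltered FPKM. The log2 fold changes over the same fits were -0.31 to 0.07 for Lepr (0.07 without ND1, 0.03 without HFD3), -0.16 to 0.01 for Stat3 (0.01 without ND2), -0.81 to -0.59 for Stat5a, -2.80 to -1.70 for Cish and 0.52 to 1.10 for Ptpn1. The cause was not tested for any of these changes. With all libraries kept, Cish ranged from -2.27 to -1.33. Jak2, Stat5b, Socs1, Socs2, Socs3 and the 6 ratios kept their direction (Cish to Socs2 from -2.40 to -0.07), and these genes their side of the threshold, in every alternative run. The replicate number as a block gave 0 members higher and 1 lower, 21 and 4 other pathway genes, and 1886 calls over all genes. Same-numbered libraries did not deviate together (correlations across genes -0.0858, -0.0556 and -0.00532), and 0 of the 6 libraries matched best with their own number, so the numbers were not taken as pairs. Lepr and Socs1 had the fewest counts of the members, 56 to 129 and 61 to 126 per library; how far depth limits their values was not tested.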
